A study of Bos taurus with 9 samples.

Results

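MYC, a proto-oncogene transcription factor, and SLC20A1, a sodium-dependent phosphate importer also called PiT-1, were followed in bovine nucleus pulposus cells placed in hyperosmotic salt. They are 2 of 9155 genes with a probe set of their own, and each was read by the 1 probe set annotated to it alone, which passed the filter on dim probe sets. Both genes were chosen because their intensity at 5 h was far below control, so the 5 h difference is given as a description and carries no test. The question is how each gene stood at 24 h.

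The series has 9 one-colour Affymetrix arrays of cells from the gelatinous core of calf caudal discs, grown in medium with fetal serum. Untreated control cells gave 3 arrays. Another 3 came from cells exposed for 5 h to added salt at 500 mOsm/kg, and 3 from a 24 h exposure. The labels call them biological replicates numbered 1 to 3, without saying whether they came from different animals, so each p-value measures the spread between these cultures. No time is given for the control, so time in culture and salt cannot be told apart, and each salt time is set against the same untreated arrays.

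MYC protein pairs with MAX, binds DNA and raises the transcription of genes for ribosome assembly, nucleotide and polyamine synthesis, and cell cycle entry. Its messenger RNA and its protein are both short-lived in mammalian cells, and its level follows growth signals. SLC20A1 carries phosphate together with sodium into the cell, and in cartilage and bone cells phosphate uptake is tied to mineral formation. The nucleus pulposus holds many fixed charges and so lives at an osmolality that changes with load.

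The arrays numbered 3, 1 of each group, stood apart from the other 6 on the first principal component, which held 47.7% of the variance, and same-numbered arrays deviated together from their group means. Among nucleus pulposus markers, the proteoglycan ACAN averaged 1261 ± 827 in control, 1053 ± 400 at 5 h and 2995 ± 1321 at 24 h (SD). The cadherin CDH2 had means of 1638, 2006 and 1387 in the same order. None of the 4 tested was called against control at 24 h, beside 5.13% of all genes called higher and 5.65% lower. With the replicate number as a block 1 was called higher, beside 19.9% of all genes. The collagen COL2A1 was dim at 182.2, 121.3 and 130.3, and the keratin KRT18 was at 21.4 or less. KRT8 and KRT19 lay below the filter on dim probe sets, and SOX9 and TBXT were not analysed here. The summed level of 5 leukocyte markers ran from 384.1 to 427.4 at 24 h, against 182.9 to 200.2 in control, and the sum of 4 skeletal muscle markers from 2140 to 3487 against 909.2 to 1079. In these lists CD14 and CKM rose, 1 of 5 and 1 of 3 tested, while the defining leukocyte marker PTPRC averaged 26.7 at 24 h and 14.6 in control, near the floor. A second CKM probe set stood at -0.019, and the muscle actin ACTA1 at -0.60 (adjusted p = 0.16, and 0.0023 with the replicate number as a block). The fibroblast markers COL12A1 and THY1 rose, 2 of 3 tested, and COL1A1 stood at -0.32 (adjusted p = 0.84, and 0.046 with the block). The part of such cells in the results for MYC and SLC20A1 was not tested.

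MYC had intensities of 734, 685 and 910.6 on the control arrays numbered 1 to 3, 169.8, 143.4 and 167.1 at 5 h, and 290, 229.6 and 226.9 at 24 h. The 3 groups did not overlap, and for 5 h against control this goes with the choice of the gene. Of all tested probe sets, 13.5% had all 24 h arrays below control and 18.1% had all 24 h arrays above 5 h. The 5 h arrays were the lowest and all of the 24 h arrays lay between them and control. The group means were 776.5 ± 119 in control, 160.1 ± 14.5 at 5 h and 248.8 ± 35.7 at 24 h (SD, n = 3 each). At 5 h MYC thus stood at 20.6% of its control mean, and at 24 h at 32% of it. In bulk RNA, fewer cells with the transcript and less transcript per cell cannot be told apart.

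SLC20A1 had intensities of 2486.1, 2334 and 2575.2 on the control arrays, 596.3, 791.9 and 808.5 at 5 h, and 1263.6, 1332.5 and 1400.5 at 24 h. Here too the groups did not overlap, with the 24 h arrays in the middle, and the same limits apply as for MYC. The means were 2465 ± 122 in control, 732.2 ± 118 at 5 h and 1332 ± 68.5 at 24 h (SD, n = 3 each). The transporter stood at 29.7% of its control mean at 5 h and at 54% of it at 24 h.

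**Figure D1:**
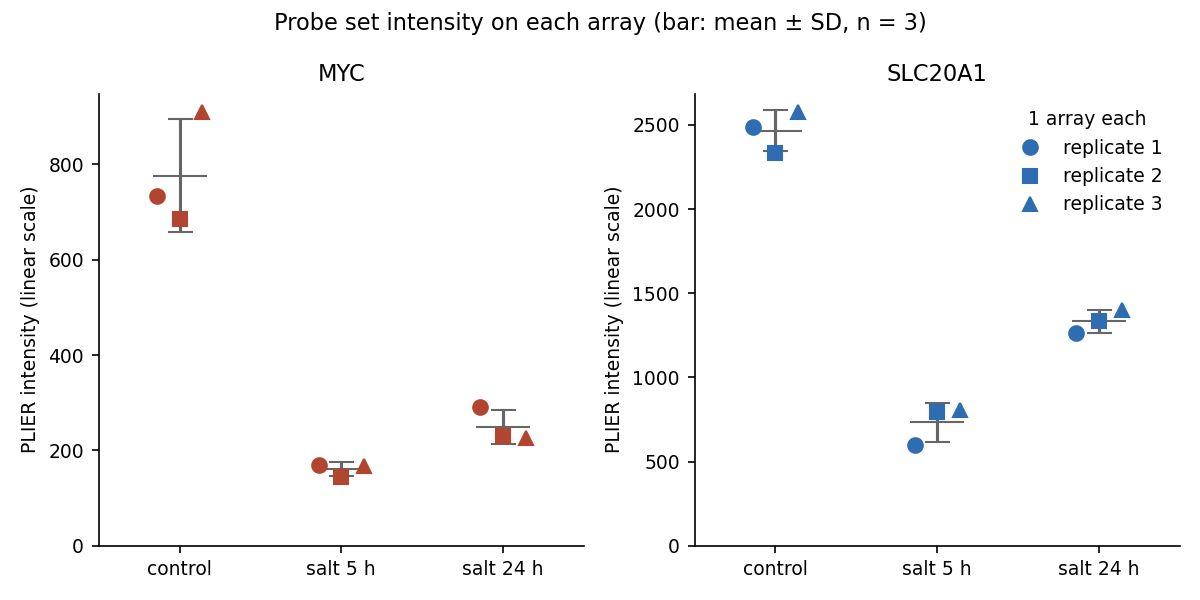
Intensity of the MYC (left) and SLC20A1 (right) probe sets on each of the 9 arrays, on a linear axis from 0, with the mean and SD of the 3 arrays of a group. In both genes the 5 h arrays are lowest and the 24 h arrays lie between them and control, at 32% of the control mean for MYC and 54% for SLC20A1.

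Changes were estimated on log2(intensity + 16) with limma over 18012 probe sets and a change was called where its p, adjusted by Benjamini and Hochberg's method, lay under 0.05. The 5 h change, which chose the genes, was -2.16 ± 0.17 for MYC and -1.74 ± 0.14 for SLC20A1 (SE, 3 arrays per group). Of all tested probe sets 0.25% were called lower at 5 h, 45 in number, and 4 of these dropped further than MYC and 10 further than SLC20A1. Just beyond MYC in that order was NAT1 at -2.23 and just short of it CH25H at -2.11. Next to SLC20A1 were 2 probe sets without a gene name, at -1.80 and -1.74.

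At 24 h both genes were still lower than in control. MYC fell by 1.58 ± 0.17 on the log2 scale against control (adjusted p = 0.0038), a 2.99-fold difference, and SLC20A1 fell by 0.88 ± 0.14 (adjusted p = 0.010), a 1.84-fold difference. The share of all tested probe sets called lower in this comparison was 4.32%, and in 13.5% the 24 h arrays lay wholly below the control arrays, as they did for both genes. In order of change, 53 probe sets stood lower than MYC and 649 lower than SLC20A1. The control arrays also entered the choice of the genes, so neither test is independent of it. Without 24 h replicate 1 the call of SLC20A1 ended at adjusted p = 0.053, with a change of -0.84.

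Between 5 h and 24 h SLC20A1 passed the test and MYC did not, which by itself does not show that their changes differed. SLC20A1 rose by 0.86 ± 0.14 at 24 h relative to 5 h (adjusted p = 0.0072), a 1.82-fold difference. MYC had a change of 0.58 ± 0.17, which missed the threshold (adjusted p = 0.058) and passed it with the replicate number as a block (adjusted p = 0.0054). In this comparison 8.01% of all tested probe sets were called higher and 18.1% had all 24 h arrays above all 5 h arrays, as MYC and SLC20A1 had. With the block 24.2% of all tested probe sets were called higher. The 5 h arrays took part in the choice of the genes, so these tests are not independent of it either. The median change over all tested probe sets from 5 h to 24 h was 0.057 as deposited and -0.096 with each array centred on its median, and the changes so centred were 0.71 for SLC20A1 (adjusted p = 0.025) and 0.43 for MYC (adjusted p = 0.20).

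The share of the 5 h drop regained by 24 h was 34.6% for SLC20A1 and 14.4% for MYC when computed from mean intensities, and 49.5% and 27% on the log2 scale. Within replicate numbers 1 to 3 the regained share of intensity was 35.3%, 35.1% and 33.5% for SLC20A1. For MYC it was 21.3%, 15.9% and 8.04%. The transporter regained nearly the same share in each replicate number, and MYC regained less than it in all 3. The labels do not state that these numbers pair the arrays. This share is divided by the 5 h drop, which chose both genes and was deeper for MYC, so it is a description.

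**Figure D2:**
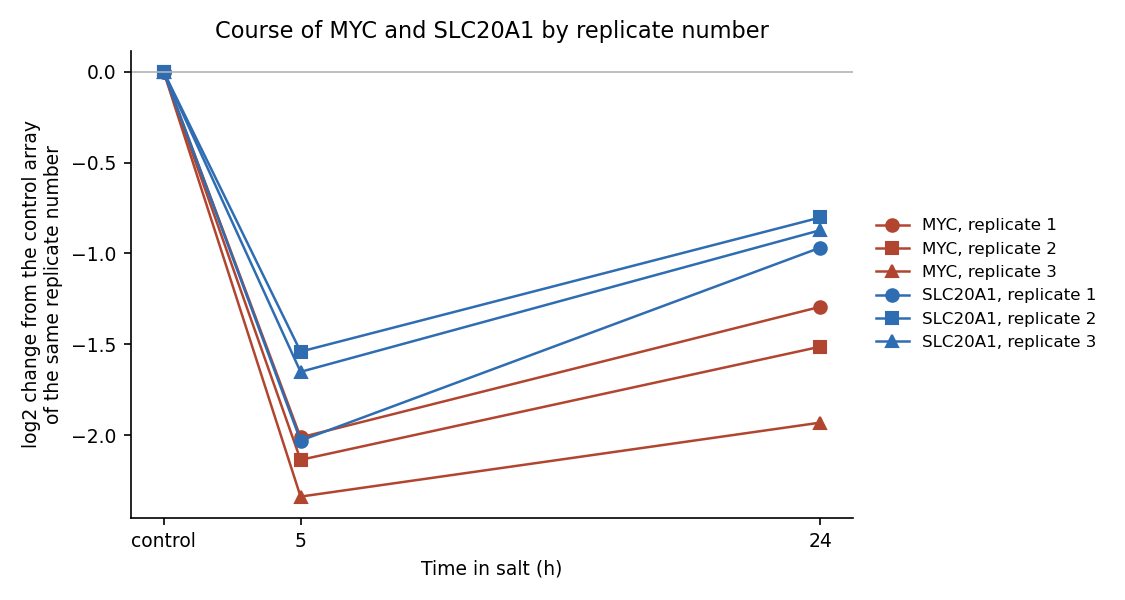
log2 change of MYC and SLC20A1 from the control array of the same replicate number, at 5 h and 24 h in salt, with 1 line per gene and replicate. All 6 lines turn upward after 5 h and end below 0, the MYC lines between -1.93 and -1.29 and the SLC20A1 lines between -0.97 and -0.80.

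Set against each other within arrays, the change of MYC less that of SLC20A1 was -0.70 ± 0.17 on the log2 scale at 24 h against control (SE, exact permutation p = 0.10, two-sided). That is the smallest p that 3 arrays against 3 allow. The within-array differences of the 24 h and control groups did not overlap, and by replicate number the value was -0.33, -0.71 and -1.06. From 5 h to 24 h the change of MYC less that of SLC20A1 was -0.28 ± 0.24 (exact permutation p = 0.30, two-sided), with -0.34, -0.12 and -0.37 by replicate number. The arrays of the 5 h and 24 h groups overlapped in this measure, while all 3 differences by replicate number were negative. Paired by replicate number the SE was 0.081 and the exact permutation p 0.25, the smallest that 3 pairs allow, so neither a smaller nor an equal change of MYC after 5 h is shown. At 24 h against control the paired SE was 0.21, with the same exact p of 0.25. These were 2 comparisons, and their permutation values are unadjusted.

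Among the 45 probe sets called lower at 5 h, 35 were called higher at 24 h than at 5 h, beside 8.01% of all tested. At 24 h 15 of the 45 stood above control. The median share of the drop regained over the 45 was 81.8% on the log2 scale, above the 49.5% of SLC20A1 and the 27% of MYC. MYC had regained more than 4 of them and SLC20A1 more than 7. Beside 4.32% of all tested probe sets, 8 of the 45 were still called below control at 24 h. Beside MYC and SLC20A1 these were the pseudokinase TRIB1, the cholesterol hydroxylase CH25H, the transcription factor JUN, the kinase MAP3K14, KTI12 and 1 probe set without a gene name. A dimmer TRIB1 probe set was not called at 24 h against control (adjusted p = 0.37). Called below control and also above the 5 h level were 2 of the 45, SLC20A1 and MAP3K14. These genes are named because their counts are small, after their values were seen. All 45 were chosen by the 5 h and control values, which enter the regained share and the calls at 24 h.

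Genes with a similar course were found by Pearson correlation over the 9 arrays among 6253 single-gene probe sets at or above the median level. The arrays share their treatment and replicate structure, so r is a description. Each of the pair was among the first 3 genes for the other, at r = 0.94, and both were chosen for the 5 h drop that enters r. For MYC the 8 genes had r from 0.89 to 0.95, led by VPS36, a subunit of the ESCRT-II sorting complex, at r = 0.95. After SLC20A1 came WDR89, the atypical kinase MAPK6, TCIM, TRIB1, the ubiquitin ligase adaptor DCAF12 and PIP. For SLC20A1 r ran from 0.92 to 0.97, with MAPK6 and DCAF12 first. MYC, the Notch glycosyltransferase LFNG, the microRNA-processing enzyme DICER1, TRIB1, the glycosyltransferase ALG2 and PLEKHJ1 followed. MAPK6, DCAF12 and TRIB1 were in both lists.

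The correlates of MYC differed in size and in their later course. TCIM had a log2 change of -2.55 at 5 h and -1.22 at 24 h against control, and TRIB1 had -2.26 and -1.38. A dimmer TRIB1 probe set stood at -1.04 (adjusted p = 0.83) and -0.90 (adjusted p = 0.37). PIP stood at -1.27 and -1.28 and WDR89 at -0.81 and -0.77, with hardly any return by 24 h. MAPK6 stood at -0.79 and -0.37, and its dimmer probe sets had -0.51 and -0.56 at 5 h. LFNG had -1.24 and -0.31 and DICER1 -1.24 and -0.49, so both had regained a larger share than SLC20A1. Other probe sets stood at 0.026 and -0.46 at 5 h for VPS36, at -0.41 for DCAF12 and at -0.048 for LFNG. With each replicate number's mean removed, 5 of the 8 genes for MYC and 3 of the 8 for SLC20A1 were still among the first 8. SLC20A1 was among those kept for MYC, and MYC was not among those kept for SLC20A1.

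**Figure D3:**
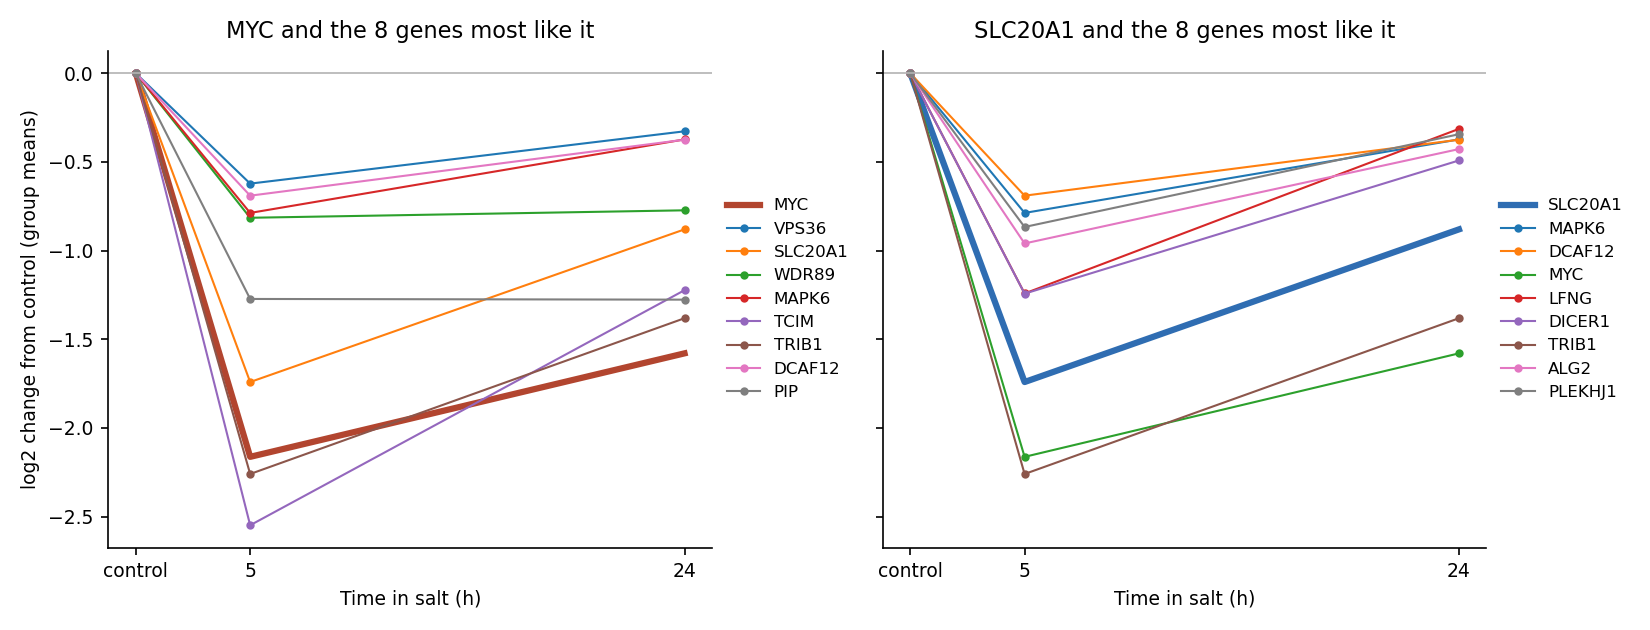
Group mean log2 change from control at 5 h and 24 h for MYC (left, thick line) and SLC20A1 (right, thick line) with the 8 genes of highest Pearson r to each over 9 arrays. All lines lie below control at 5 h, between -2.55 for TCIM and -0.62 for VPS36, and the lines of PIP and WDR89 are nearly flat after 5 h.

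MYC works within a network of partners that also bind MAX or the related protein MLX, and 9 of the 14 genes listed for it were tested. None was called at 5 h by limma with either fit, where 0.189% of all genes were called higher and 0.253% lower, and 544 of 7916 genes had an unadjusted p under 0.05 in that comparison. MAX itself averaged 48.4 ± 14.4 at 24 h, 48.2 ± 9.2 at 5 h and 50.3 ± 14.8 in control, with a log2 change of -0.044 ± 0.23 at 24 h, and its low intensity limits what can be seen. At 24 h against control 2 of the 9 fell, where 5.65% of all genes were called lower, and 0 rose. The repressor MXD3, which competes with MYC for MAX, had a change of -1.08 ± 0.26 (adjusted p = 0.037). The MYC-binding protein MYCBP fell by 0.73 ± 0.16 (adjusted p = 0.030). The 2 other probe sets of MXD3 stood at -0.85 (adjusted p = 0.070) and, the dimmest, 0.059. The antagonist MXI1 stood at 0.91 ± 0.37 (adjusted p = 0.18, and 0.00048 with the replicate block). Its 2 dimmer probe sets, which the count leaves out, rose by 0.88 (adjusted p = 0.025) and 0.74 (adjusted p = 0.035), both called. From 5 h to 24 h 1 of the 9 rose and 2 fell, where 9.1% of all genes were called higher and 7.91% lower. MLX rose by 0.59 ± 0.17 (adjusted p = 0.048), MXD3 and MYCBP fell, and MGA was at 0.063. Without control replicate 2 or 3, 5 h replicate 1 or any 24 h array, 0 of the 9 were called at 24 h, and the block called 2 higher and 2 lower, where it called 19.9% of all genes higher and 20.1% lower.

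Genes that govern MYC transcription, messenger stability, cofactors or protein turnover were tested for 26 of 37. None was called at 5 h, where 0.189% of all genes were called higher and 0.253% lower. The replicate block called 1 there, and 5.28% of all genes. At 24 h against control 2 fell: RUVBL1, an ATPase of chromatin complexes that MYC recruits, by 0.82 ± 0.15 (adjusted p = 0.017) and the RNA-binding protein ELAVL1 by 0.49 ± 0.11 (adjusted p = 0.030). Their share of 7.69% lower is close to the 5.65% over all genes, each taken by its brightest probe set. FBXW7, the ubiquitin ligase subunit that marks MYC protein for degradation, averaged 176.4 ± 34.5 at 24 h, 94.8 ± 15.1 at 5 h and 136.6 ± 29.5 in control. It rose by 0.79 ± 0.22 from 5 h to 24 h (adjusted p = 0.045), the 1 riser of the list there, beside 9.1% of all genes. AURKA, a mitotic kinase that stabilises MYC-family proteins, fell by 1.71 ± 0.32 between these times (adjusted p = 0.012). A second AURKA probe set stood at -1.75 and was not called (adjusted p = 0.068). FUBP1, which binds a DNA element upstream of MYC, fell by 1.03 ± 0.21 (adjusted p = 0.016). Its other probe set stood at -0.28 (adjusted p = 0.76). In all 6 of the 26 fell between these times, 23.1% beside 7.91% of all genes, among them CNBP by 0.59. The replicate block called 12 of 26 at 24 h against control, 10 of them lower, where it called 20.1% of all genes lower. No call was left without control replicate 2 or 3, 1 without 5 h replicate 1, 24 h replicate 1 or 24 h replicate 3, and 5 without control replicate 1.

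Target genes that MYC is known to activate were not called at 5 h, and many were lower at 24 h. Whether MYC had a part in these changes was not tested. Of 58 listed genes 44 were tested. None was called at 5 h with either fit, where 0.189% of all genes were called higher and 0.253% lower, and 5.28% with the block. Without the block, the absence of calls is close to the share over all genes. Their median log2 change at 5 h was 0.050, beside -0.025 over all genes. At 24 h against control 20 fell and 0 rose, a share of 45.5% beside 5.65% over all genes, and the median change was -0.85 beside 0.012. From 5 h to 24 h 21 fell, a share of 47.7% beside 7.91%, with a median of -0.85. With the replicate block 37 fell and 1 rose at 24 h against control, where the block called 20.1% of all genes lower. The call count leaned on single arrays, with 3 called without control replicate 2, 4 without 24 h replicate 1, 10 without control replicate 3 and 13 without 24 h replicate 2 or 3. The median stayed between -0.93 and -0.69 with each array left out.

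The polyamine genes were low together at 24 h. ODC1, the first enzyme of polyamine synthesis, averaged 1691 ± 525 at 24 h, 3896 ± 1363 at 5 h and 4335 ± 509 in control, and fell by 1.39 ± 0.27 against control (adjusted p = 0.020). Spermidine synthase, SRM, fell by 1.70 ± 0.28 (adjusted p = 0.012) and AMD1, which supplies its aminopropyl donor, changed by -1.15 ± 0.19 (adjusted p = 0.013). A second AMD1 probe set stood at -0.88 and was not called. At 5 h the changes of ODC1, SRM and AMD1 were -0.21, -0.034 and -0.030.

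Of 13 tested genes of the nucleolus and ribosome assembly 8 fell at 24 h, 61.5% beside 5.65% of all genes. Their median was -0.998 at 24 h and 0.071 at 5 h. The nucleolar proteins GNL3 and FBL changed by -1.502 and -1.42, DKC1, the pseudouridine synthase of small nucleolar RNPs, by -1.25, WDR43 by -1.08 and nucleolin, NCL, by -0.82, all called. In RNA modification and translation 3 of 4 were called, all lower. There the helicase EIF4A1 fell by 1.07 ± 0.12 (adjusted p = 0.0043) and the cap-binding protein EIF4E changed by -0.503 ± 0.13 (adjusted p = 0.045). EIF2S1 was not called, at -0.21 ± 0.13 (adjusted p = 0.42). In amino acid and iron uptake 2 of 4 were called, the amino acid transporters SLC7A5 and SLC1A5, at -2.12 and -1.37. Not called were SLC3A2 at -0.051 ± 0.61 (adjusted p = 0.98) and TFRC at -0.84 ± 0.35 (adjusted p = 0.18, and 0.0029 with the block). EIF2S1, SLC3A2 and TFRC are named after their values were seen. Of the other roles, nucleotide synthesis had 1 of 5 called, cell cycle and replication 1 of 5, and mitochondria and chaperones 2 of 6, all lower. Beside the 5.65% of all genes called lower, 1 call among 5 genes says little. CAD, which starts pyrimidine synthesis, stood at -0.66 ± 0.19 (adjusted p = 0.067, and 0.0021 with the block) and CDK4 at -0.44 ± 0.37 (adjusted p = 0.57, and 0.0058 with the block).

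Glycolysis was the role in which no tested member was called, with 4 genes tested and a median of -0.030 at 24 h. As 5.65% of all genes were called lower and 5.13% higher, no call among 4 genes is near those shares. LDHA averaged 12413 at 24 h and 12838 in control, a change of -0.048 ± 0.071, and lay near the highest value on an array, which was between 13754 and 15435. ENO1, also bright, stood at -0.016 and SLC2A1 at -0.044. PKM stood at 0.37 ± 1.16 (adjusted p = 0.92, and 0.0089 with the block) and varied widely between arrays. ENO1, SLC2A1 and PKM are named after their values were seen.

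**Figure D4:**
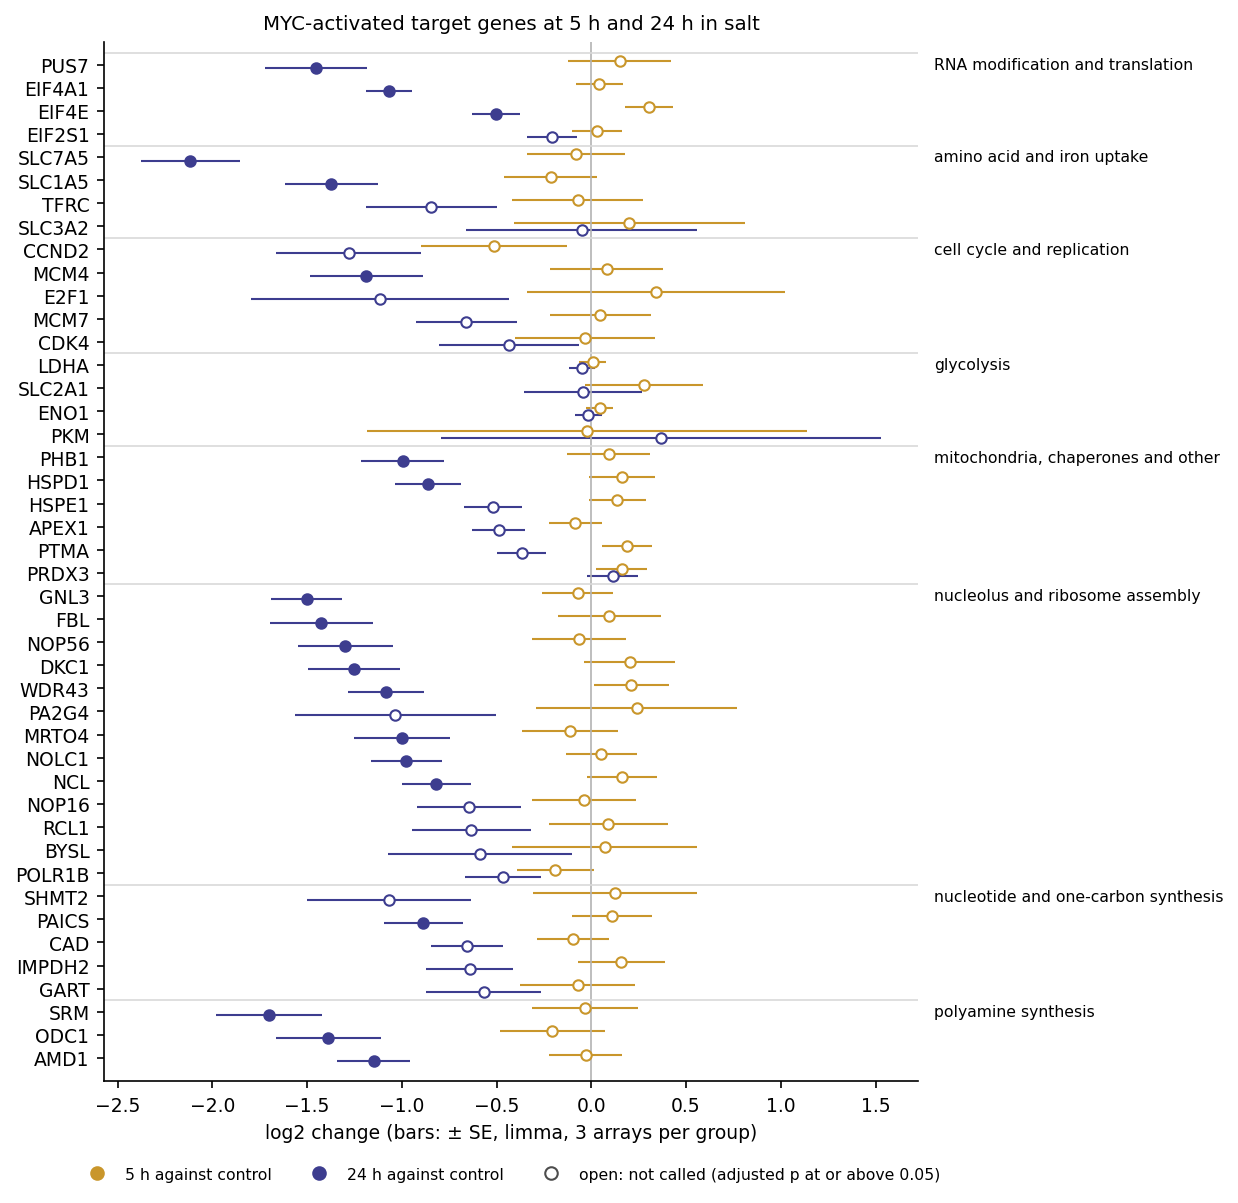
log2 change with SE at 5 h and 24 h in salt against control for the 44 tested MYC-activated target genes, grouped by role, with filled points for adjusted p under 0.05. The 5 h points lie between -0.51 and 0.34 and are all open, and 20 of the 24 h points are filled, all to the left of 0.

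Genes that MYC is known to repress gave 1 call at 24 h against control, 12.5% lower beside 5.65% of all genes. Of 11 listed genes 8 were tested, with a median of 0.020 at 24 h. NDRG1, whose transcription MYC lowers, fell by 0.95 ± 0.19 (adjusted p = 0.022), and its call ended without control replicate 2 or 3 or 24 h replicate 1 or 3. The cell cycle inhibitor CDKN1A averaged 2329 ± 553 at 24 h, 2045 ± 279 at 5 h and 2002 ± 855 in control, a change of 0.27 ± 0.29 at 24 h. CDKN2B was at 25.6 or below in every group mean, near the floor.

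SLC20A1 belongs to a set of genes that move, store or release phosphate, of which 23 of 40 others were tested. Its closest relative, the importer SLC20A2 or PiT-2, had intensities averaging 108.8 ± 36.5 at 24 h, 69.5 ± 13.7 at 5 h and 110 ± 27.1 in control. Its log2 change was -0.55 ± 0.26 at 5 h (adjusted p = 0.77) and -0.029 ± 0.26 at 24 h (adjusted p = 0.98). The mitochondrial phosphate carrier SLC25A3 stood at 0.034 ± 0.11 and -0.12 ± 0.11, and ANKH, which exports pyrophosphate and its precursor from cells, at -0.011 and 0.029. The importers SLC34A1 and SLC34A2 lay below the filter, and the exporter XPR1 was not analysed here.

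At 5 h 1 of the 23 was called, beside 0.189% of all genes called higher and 0.253% lower. This was the inositol hexakisphosphate kinase IP6K2, whose product binds phosphate-sensing domains. It averaged 1607 ± 338 at 5 h and 357.4 ± 51.4 in control, a rise of 2.11 ± 0.19 (adjusted p = 0.0044), and its 3 other probe sets gave 0.46, 1.44 and 0.22. At 24 h against control IP6K2 was up by 1.03 ± 0.19 (adjusted p = 0.017). Its probe sets went opposite ways from 5 h to 24 h, at -1.08, 0.89, -0.64 and 1.07, so that later step is uncertain. IP6K1 was at 0.118 ± 0.99 and PPIP5K2 at -0.095 ± 0.29 at 24 h.

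In all 4 of the 23 rose at 24 h against control and 2 fell, shares of 17.4% and 8.7% beside 5.13% and 5.65% over all genes, with a median of 0.12. Both inorganic pyrophosphatases, which split pyrophosphate into phosphate, fell, the cytosolic PPA1 by 0.98 ± 0.14 (adjusted p = 0.0073) and the mitochondrial PPA2 by 1.04 ± 0.13 (adjusted p = 0.0053). The mineralisation inhibitor MGP rose by 2.17 ± 0.42 (adjusted p = 0.019), but a dimmer MGP probe set stood at -0.018. LHPP, a phosphatase, rose by 1.04 ± 0.22 (adjusted p = 0.024) and the sugar-phosphate exchanger SLC37A1 by 0.63 ± 0.15 (adjusted p = 0.040). ENPP1, which makes pyrophosphate outside the cell, stood at -0.78 ± 0.27 (adjusted p = 0.12, and 0.0035 with the block), and the phosphatase ALPL at -0.019 ± 0.19. Without control replicate 2 there were 2 calls and without 24 h replicate 1 there were 3.

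**Figure D5:**
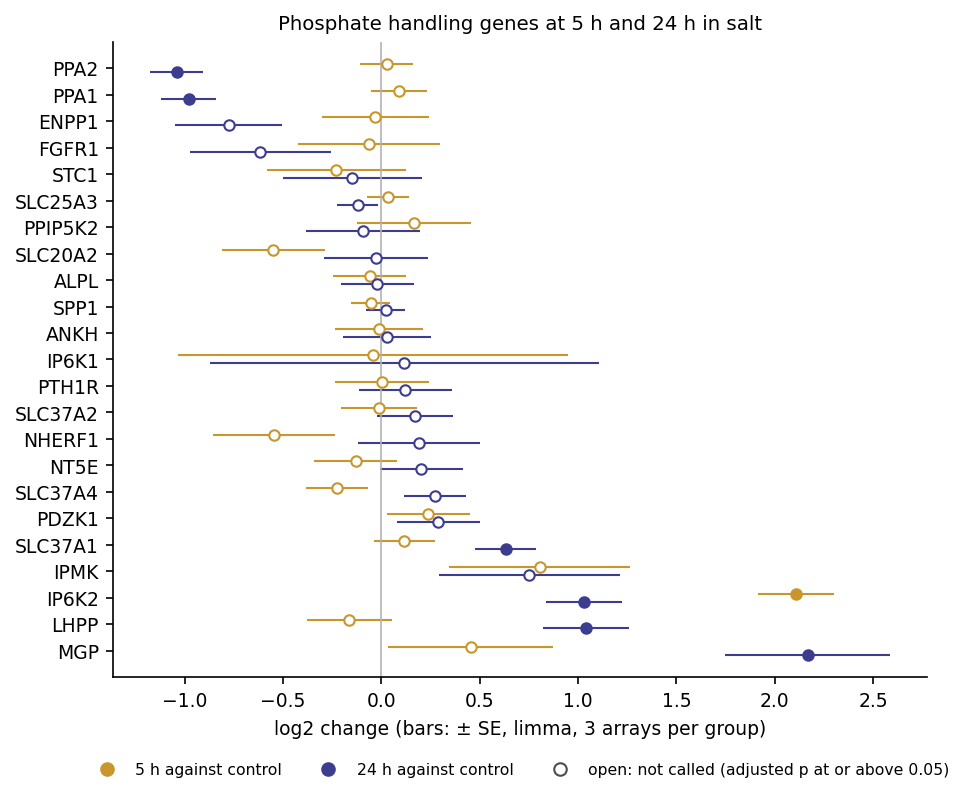
log2 change with SE at 5 h and 24 h in salt against control for the 23 tested phosphate handling genes other than SLC20A1, with filled points for adjusted p under 0.05. IP6K2 is the only filled point at 5 h, and at 24 h PPA1 and PPA2 lie near -1 and MGP at 2.17.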

How the data were processed

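Each array has 1 intensity per probe set, on a linear scale. The authors' deposited intensities come from PLIER, and the submitters' processing notes also name Affymetrix Expression Console. Their versions, settings and normalization are not stated in these sources. The table holds 24128 probe sets, of which 112 are manufacturer controls and were left out. Symbols came from the platform annotation, which gives 1 gene to 13292 probe sets, several to 86 and none to 10638. Of these, 13263 matched a current bovine gene table by number, and 0 symbols changed. Genome positions and sequences were not used here.

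The deposited intensities were taken as log2(value + 16), which compresses changes of dim probe sets, and the 18012 probe sets at or above the 25th percentile of mean log2 value were kept. The 9 arrays entered 1 model with a mean per group (limma 3.58.1, R 4.3.3, functions lmFit and eBayes, variance trend on), and p-values were Benjamini-Hochberg adjusted within each comparison. Every adjusted p given comes from this fit unless the block is named. The fit was tested on simulated data with the same spread for all probe sets and no shared replicate effect. These arrays differ in both, so that run does not check the calls made here. The number of arrays limits the precision.

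A gene in a list was read by its brightest single-gene probe set. Named genes were MYC and SLC20A1, the 8 genes most correlated with each, up to 6 called members per list and comparison with the smallest adjusted p, and a set fixed by name. Members, lists and this rule were chosen with earlier results of these data known, and the counts of called members in a list carry no test of the list. The replicate numbers were taken to pair the arrays, which the labels do not state. The labels number the arrays of each group alike. Deviations from group means correlated at 0.56 to 0.90 between same-numbered arrays in all 9 pairs and at -0.78 to 0.54 between unlike numbers. A fit with the number as a block is therefore given beside results it changes.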

Additional observations from a re-analysis of the deposited data

How the results depend on the processing

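The direction of MYC and SLC20A1 in each comparison held in all 18 alternatives run, and so did the sign of the difference between their changes. With each array left out in turn the 5 h change ran from -2.25 to -2.05 for MYC and from -1.82 to -1.60 for SLC20A1, and the 24 h change against control from -1.69 to -1.46 and from -0.92 to -0.84. From 5 h to 24 h it ran from 0.48 to 0.64 for MYC and from 0.72 to 0.94 for SLC20A1. The change of MYC less that of SLC20A1 ran from -0.84 to -0.60 at 24 h against control and from -0.42 to -0.099 from 5 h to 24 h. MYC at 5 h was -1.90 with a pseudocount of 64. The MYC change of 0.58 from 5 h to 24 h was called with a filter at the median (adjusted p = 0.046), with the replicate block (adjusted p = 0.0054) and, at 0.67, without the 3 arrays numbered 3 (adjusted p = 0.049), an alternative chosen after seeing the data. Over its 18 alternatives its adjusted p ran from 0.0054 to 0.20. The block ended no call of MYC or SLC20A1.

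Probe sets called at 5 h were 87, and 57 with arrays centred on their medians, 1056 with the block and 13 with only the 6 arrays compared. At 24 h against control they were 1550, 6452 with the block and 792 with 6 arrays, and from 5 h to 24 h 2551 and 7884 with the block. With each array left out the counts ran from 15 to 126 (126 without 5 h replicate 2), 304 to 1533 and 854 to 2429. Centring turned the split of higher and lower calls to 34 and 23 (42 and 45 as deposited), 503 and 827 (771 and 779) and 806 and 1608 (1443 and 1108). Called list members at 24 h against control were 38 of the MYC-activated, 2 of the MYC-repressed, 4 of the MAX network and 12 of the MYC control genes with the block. With 6 arrays they were 0 of the MAX network, 1 of the MYC control and 3 of the phosphate genes, and without the arrays numbered 3 they were 1 of the MAX network and 1 of the MYC control genes. With each array left out they ran from 3 to 20, 0 to 1, 0 to 2, 0 to 5 and 2 to 6 for the MYC-activated, MYC-repressed, MAX network, MYC control and phosphate genes. Fits to fewer arrays have less power, and the cause of the other shifts was not tested. The mean over all probe sets of MYC or of SLC20A1 was not run, since each has 1. Dim probe sets such as MAX limit what can be seen.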
